A study of Mus musculus with 8 samples.

Results

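Complement is a cascade of plasma and cell-surface proteins, and 9 of its genes are described here in mouse distal convoluted tubule: the proteases C1s1 and C1ra, the components C3, C4b and Cfb, and the regulators Cfi, Cd55, Cd59a and Serping1. The 9 were taken by name from 42416 genes in the files, selected on their measured difference between the groups (KO against Control read counts, known from an earlier look at these data). That difference is therefore given as a description, and no p-value of it is given for any of the 9. Which of them pass a threshold is stated below, and nothing is read from it. The p-values printed for Cfb belong to its relation to cell type markers. All 9 passed the filter on low counts that left 14268 genes to be tested.

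RNA was sequenced from 8 libraries, 4 labelled Control and 4 labelled KO, each made from 1000 tubule fragments collected on a Biosorter, a flow sorter for large particles. KO animals were labelled Cnb1fl Tg/Tg and Control animals Cnb1fl wt, and animals of both groups carried NCCcre Tg/+ and the reporter TOMATO Tg/+. Cnb1 is another name of Ppp3r1, the regulatory subunit of the phosphatase calcineurin, and the Cre transgene bears the name of the NaCl cotransporter of this segment. All animals received tamoxifen by gavage, 2 mg daily for each animal over 5 days, and tissue was taken 3 weeks later, so control libraries carry the Cre, the reporter and the drug too. The labels give another animal number for each library and no age or sex. Replicate numbers follow the order of deposit and only name libraries. The series addresses the kidney side effects of calcineurin inhibitors.

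In the classical pathway, antibody or other ligands bind C1q, C1r activates C1s, and C1s cuts C4 and C2. In the alternative pathway, factor B joins C3b to form another C3-cutting enzyme. Both routes meet at C3, and inhibitors on the cell surface and in plasma hold them back: Serping1 blocks C1r and C1s, Cd55 breaks up the C3-cutting enzymes, factor I cuts C3b and C4b, and Cd59a blocks the membrane attack complex. Liver makes most of the circulating proteins, and kidney tubule cells also make some of them.

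Total counts were 18161442 to 45150953 per library, with Control replicate 2 and KO replicate 1 the deepest. These are also the libraries whose file name holds an index sequence. The targeted gene Ppp3r1 had a log2 fold change of -0.18 ± 0.13 (SE, n = 4 per group, edgeR quasi-likelihood adjusted p = 0.548), so it does not check the labels, and KO below means labelled KO. Slc12a3, the NaCl cotransporter that defines the segment, was at 3910 to 8070 CPM (read counts scaled to a common library total) over the 8 libraries. Markers of neighbouring segments were also present: 9 proximal tubule markers summed to 1430 to 5030 CPM in Control against 1370 to 3240 CPM in KO, and 6 thick ascending limb markers to 8980 to 14000 CPM and 4340 to 7140 CPM. The 11 distal convoluted tubule markers summed to 11700 to 16100 CPM in Control against 7330 to 11200 CPM in KO. Members of the distal list did not move alike, and those of the thick ascending limb list were lower in KO by unequal amounts. Of the 11, 5 were lower and 1 higher in KO by edgeR at an adjusted p under 0.05. Log2 fold changes were -8.06 for Pvalb, the lowest of the 11, -2.68 for Calb1, -0.41 for Slc12a3, 0.01 for Kcnj16 and 0.63 for Tfap2b, the highest. In the thick ascending limb list they were -1.19 for Umod, -0.77 for Slc12a1, -0.68 for Cldn10, -0.63 for Cldn16, -0.35 for Ptger3 and -0.04 for Kcnj1. Of all genes tested, 191 (1.34%) were higher and 125 (0.876%) lower in KO at an edgeR adjusted p under 0.05. Every KO library lay above every Control library in 5.61% of them and below in 3.83%.

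The highest log2 fold change of the 9 genes belongs to C1s1, and the C1r and C1s genes sit together within 124 kb of chromosome 6 (GRCm38). The mouse has a pair of each: C1ra (ENSMUSG00000055172, 124512405 to 124523443, plus strand), C1s1 (ENSMUSG00000038521, 124530345 to 124542359, minus strand), C1rb (124570294 to 124581171, plus strand) and C1s2 (124624625 to 124636085, minus strand). C1ra and C1s1 are among the 9 genes, and C1rb and C1s2 are their near copies. The 250 bases before each RefSeq transcription start (RefSeq, GRCm38.p6) are shown because these 4 promoters belong to genes at one locus whose counts behaved unequally. Each is printed 5′ to 3′ on the strand of its gene. Capitals mark runs of at least 12 bases that also occur in the window of the near copy.
C1ra, chr6:124512371-124512620, plus strand: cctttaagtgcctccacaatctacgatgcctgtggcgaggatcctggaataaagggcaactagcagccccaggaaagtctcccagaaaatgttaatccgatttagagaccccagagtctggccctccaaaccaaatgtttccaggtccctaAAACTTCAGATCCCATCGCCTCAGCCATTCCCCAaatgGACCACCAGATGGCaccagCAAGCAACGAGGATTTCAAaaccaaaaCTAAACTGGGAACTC
C1rb, chr6:124570180-124570429, plus strand: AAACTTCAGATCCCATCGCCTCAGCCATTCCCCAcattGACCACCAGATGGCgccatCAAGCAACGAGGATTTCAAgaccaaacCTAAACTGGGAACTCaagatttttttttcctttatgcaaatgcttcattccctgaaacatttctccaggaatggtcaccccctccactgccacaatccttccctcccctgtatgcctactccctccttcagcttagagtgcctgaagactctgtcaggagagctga
C1s1, chr6:124542360-124542609, minus strand: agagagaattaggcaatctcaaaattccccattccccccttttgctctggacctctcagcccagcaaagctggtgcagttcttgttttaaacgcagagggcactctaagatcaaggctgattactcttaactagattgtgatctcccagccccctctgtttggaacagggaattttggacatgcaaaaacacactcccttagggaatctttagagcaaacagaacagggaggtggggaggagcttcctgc
C1s2, chr6:124636086-124636335, minus strand: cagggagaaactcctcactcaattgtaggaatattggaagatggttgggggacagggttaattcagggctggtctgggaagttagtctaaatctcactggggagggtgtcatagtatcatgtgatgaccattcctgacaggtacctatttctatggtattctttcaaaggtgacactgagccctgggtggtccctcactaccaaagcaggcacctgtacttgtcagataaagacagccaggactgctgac
The C1ra and C1rb windows shared 82 bases in such runs, the longest of 34 bases, at the end of the C1ra window and at the beginning of that of C1rb. The RefSeq starts of both lie inside the gene spans given above, which come from GENCODE vM21. Much of both windows therefore lies inside the annotated genes, from base 124512405 on for C1ra and from base 124570294 on for C1rb. The C1s1 and C1s2 windows shared 0 bases in such runs. GC content was close in the 4 windows, at 49.6% for C1ra, 48.8% for C1rb, 48% for C1s1 and 48% for C1s2.

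A set of 6 motifs were searched on both strands, and the share of all 32851 RefSeq windows of this length that hold each is given beside it. They were the AP-1 site TGANTCA (6.75%), the STAT-binding GAS element TTCNNNGAA (7.02%), the interferon regulatory factor core GAAANNGAA (7.13%), the E2F site TTTCGCGC (0.256%), the NF-kappaB consensus (3.9%) and the NFAT core GGAAA (55.6%), the last being the element of the transcription factors that calcineurin activates. Any overlap between the motifs was allowed. Neither C1s1 nor C1s2 held any of the 6 in its window. C1ra held the NFAT core at 2 places, and C1rb held it at 1 place and the GAS element at 1 place. Windows were found for 5 of the 9 genes and 4 of the 5 near copies. Of the others with a window, C3 held the NFAT core at 2 places, Cd55 held none of the 6, and Cd59a held the NFAT core at 5 places and the interferon regulatory factor core at 1. A match is a run of letters and not a known binding site.

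C1s1, the protease that cuts C4 and C2, had 30, 123, 29 and 46 counts in the Control libraries, replicates 1 to 4, against 453, 851, 88 and 651 counts in those of KO. Scaled to library size, its levels were 1.46, 2.96, 1.52 and 2.31 CPM in Control against 9.32, 32.8, 3.46 and 32.6 CPM in KO. All KO libraries lay above all Control libraries, but they were spread widely: KO replicates 2 and 4 were the highest, while KO replicate 3 was just above the highest Control library. On the log2 scale the fold change, KO over Control, was 3.21 ± 0.65 (SE, n = 4 per group), a ratio of 9.27. It was 2.85 without KO replicate 2 and 2.85 without KO replicate 4. In tissue taken in bulk, more cells of a type and more RNA per cell cannot be told apart, here and for every gene below.

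C1ra, the mouse C1r that activates C1s, was at 0.731, 1.49, 1.31 and 1.95 CPM in Control against 2.88, 2.39, 1.69 and 1.85 CPM in KO. The groups overlapped, since Control replicate 4 lay above KO replicates 3 and 4. Its log2 fold change was 0.69 ± 0.34 (SE). C1s1 and C1ra were therefore close to each other in Control per kb of exon, at 0.659 ± 0.228 and 0.460 ± 0.170 CPM per kb (SD, n = 4), and far apart in KO, at 6.25 ± 4.92 and 0.739 ± 0.181 CPM per kb.

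The near copies were not among the 9 genes and were tested. C1rb was at 0.488, 1.30, 0.0523 and 0.2 CPM in Control against 1.09, 5.32, 2.28 and 4.96 CPM in KO, a log2 fold change of 2.60 ± 0.75 (SE, n = 4 per group, edgeR adjusted p = 0.137). C1s2 was at 2.68, 1.28, 1.31 and 1.15 CPM in Control against 3.68, 12.6, 2.64 and 7.17 CPM in KO, a log2 fold change of 2.02 ± 0.50 (SE, n = 4 per group, edgeR adjusted p = 0.0836). In each, 1 KO library crossed into the Control range: KO replicate 1 for C1rb, and KO replicate 3 for C1s2. KO replicates 2 and 4 held the highest values of C1s1, C1rb and C1s2, whereas C1ra was highest in KO replicates 1 and 2. Under DESeq2 both near copies passed, with adjusted p = 0.00495 for C1rb and adjusted p = 0.000946 for C1s2. The copies are not independent measurements: 21.8% of the 50-base words of C1s1 transcripts also occur in C1s2 and 48% of those of C1ra in C1rb, and how reads matching both were counted is not given in the sources used here.

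**Figure D1:**
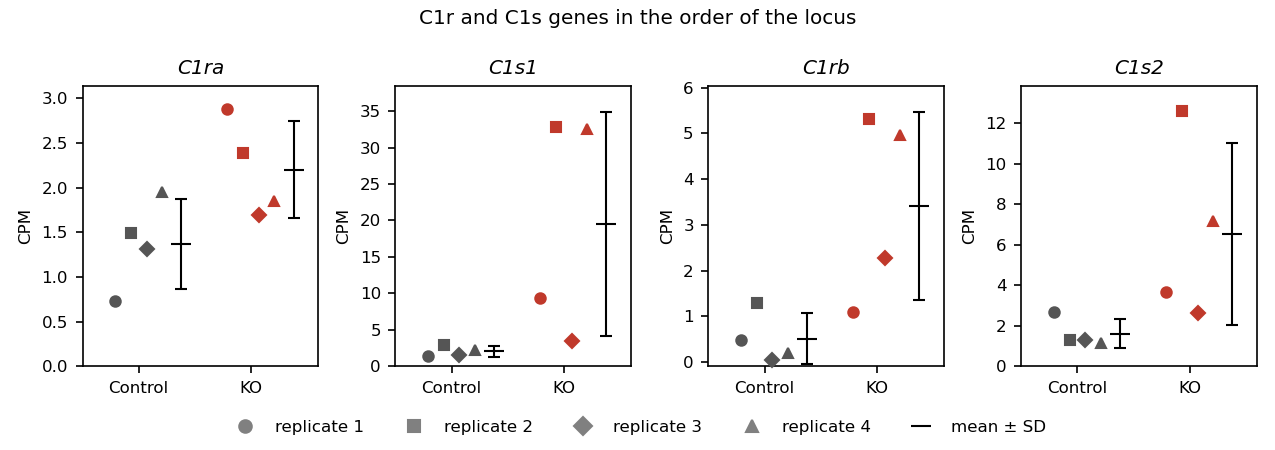
Level in CPM (y axis) of C1ra, C1s1, C1rb and C1s2, from left to right in their order on chromosome 6. Each point is 1 library, grey for Control and red for KO, and the bar is the mean ± SD of 4; KO replicates 2 and 4 are highest for C1s1, C1rb and C1s2, at 32.8 and 32.6 CPM for C1s1.

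The 14 macrophage and leukocyte markers summed to 11.5, 13.7, 13.7 and 14.5 CPM in Control against 78.1, 27.5, 21.9 and 49.5 CPM in KO. All KO sums lay above all Control sums. The largest term in every library was Csf1r, the receptor for the macrophage growth factor CSF1, at 7.12, 6.01, 7.79 and 7.57 CPM in Control against 72.2, 12.4, 13.3 and 32.8 CPM in KO (log2 fold change 2.21 ± 0.52, SE, n = 4 per group, edgeR adjusted p = 0.0640). Of the list, 6 genes had enough counts to be tested and 0 passed by edgeR, against 1.34% higher and 0.876% lower of all genes tested. Of these 6, Csf1r and the lysosomal marker Cd68 separated the groups with KO above, as did 5.61% of all genes tested. Cd68 was at 0.418 to 0.577 CPM in Control and 0.787 to 3.81 CPM in KO. Ptprc, the pan-leukocyte marker CD45, overlapped at 1.02 to 3.11 and 2.51 to 10.9 CPM (log2 fold change 1.56), as did the macrophage genes Mrc1 (0.19), Lyz2 (-0.22) and Cd14 (-0.45). By the sum, the order of the KO libraries was not that of C1s1. KO replicate 1 held the highest sum, 78.1 CPM, of which Csf1r was 72.2 CPM. The C1s1 level of KO replicate 1 was below those of KO replicates 2 and 4. Single markers differed in their order. In KO replicates 1 to 4, Cd68 was at 0.905, 2.62, 0.787 and 3.81 CPM, and Ptprc at 2.51, 6.55, 3.46 and 10.9 CPM. Both were highest in KO replicates 2 and 4, as C1s1 was, and Mrc1, Lyz2 and Cd14 were not. Fibroblasts also make C1r and C1s, and the 8 fibroblast and pericyte markers summed to 2.29 to 7.27 CPM in Control and 0.251 to 4.60 CPM in KO, with Lum at 0 in all 8 libraries. The part of other cells in the C1s1 values was not tested.

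Of the 3 components, C3 and C4b were scarce, at 5 to 81 and 6 to 118 counts per library, and Cfb was abundant. C3 (ENSMUSG00000024164, chromosome 17, 57203970 to 57228136), the protein at which all routes meet, had 10, 81, 21 and 5 counts in Control and 22, 19, 44 and 9 in KO. Its levels were 0.488, 1.95, 1.1 and 0.251 CPM in Control against 0.452, 0.733, 1.73 and 0.451 CPM in KO. The groups overlapped over nearly their whole range, and the log2 fold change of -0.22 ± 0.65 (SE) turned to 0.45 without Control replicate 2.

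C4b (ENSMUSG00000073418, chromosome 17, 34728380 to 34743882), the substrate of C1s, was at 0.293, 2.84, 2.14 and 2.41 CPM in Control against 1.03, 0.964, 0.748 and 0.601 CPM in KO. Control replicates 2 to 4 lay above every KO library and Control replicate 1 below them all, so the groups overlapped through that library alone. The log2 fold change was -1.19 ± 0.55 (SE) with all libraries and -1.55 without Control replicate 1. C4a, its near copy, was at 0.734 ± 0.434 CPM in Control against 0.956 ± 0.738 CPM in KO (SD, n = 4), a log2 fold change of 0.44 ± 0.63 (SE, edgeR adjusted p = 0.764), which was -0.12 without KO replicate 1. Of the 50-base words of C4b, 34.6% also occur in C4a, and reads that lie within these words cannot be assigned to one of the genes.

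Cfb (ENSMUSG00000090231, chromosome 17, 34856374 to 34862518, minus strand), the protease of the alternative pathway, was at 42.9, 163, 150 and 95.4 CPM in Control against 94.6, 67.9, 119 and 43.6 CPM in KO. The groups overlapped, with a low library in each, Control replicate 1 and KO replicate 4, and the log2 fold change was -0.47 ± 0.40 (SE). These libraries were also the lowest in proximal tubule markers, which summed to 1430, 5030, 4370 and 3070 CPM in Control against 3000, 2150, 3240 and 1370 CPM in KO. The list holds 9 genes of the segment upstream, among them the phosphate transporter Slc34a1 and the endocytic receptor Lrp2.

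Cfb followed that sum closely. Over the 8 libraries and on log2(CPM + 1), Pearson's r was 0.99 (exact permutation p = 7.44e-05, adjusted p = 0.00632) and Spearman's rho was 0.98 (exact permutation p = 0.000397, adjusted p = 0.0337). Both were two-sided and adjusted over the 85 relations computed between complement genes and marker lists, and the list was chosen with the values in view. Without Control replicate 1 and KO replicate 4, the farthest from the median of the sum, r was 0.98, and it was 0.99 over the 6 libraries with no index in the file name. Each group alone has too few libraries for a correlation, and within each group the libraries stood in the same order for both measures. Per 1000 CPM of the markers, Cfb was at 30.0, 32.4, 34.3 and 31.1 CPM in Control against 31.5, 31.6, 36.7 and 31.8 CPM in KO, means of 32.0 ± 1.86 and 32.9 ± 2.54 (SD, n = 4). On that scale the libraries differed far less than in CPM, and the groups overlapped. Cfb also rose with the sums of endothelium (r = 0.81), glomerulus (r = 0.79) and fibroblast and pericyte markers (r = 0.73), and none of these passed after adjustment. The proximal tubule sum had r = 0.84 with C4b and r = 0.86 with the complement gene Cpn1, which did not pass either. No relation was computed for marker lists whose sums separated the groups: macrophage and leukocyte, thick ascending limb and distal convoluted tubule. A urothelium list, at 0 to 0.265 CPM, was left out too, as were C1s1 and Serping1. Cfb was therefore not compared with those lists. Whether proximal tubule fragments carried the Cfb transcript was not tested.

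**Figure D2:**
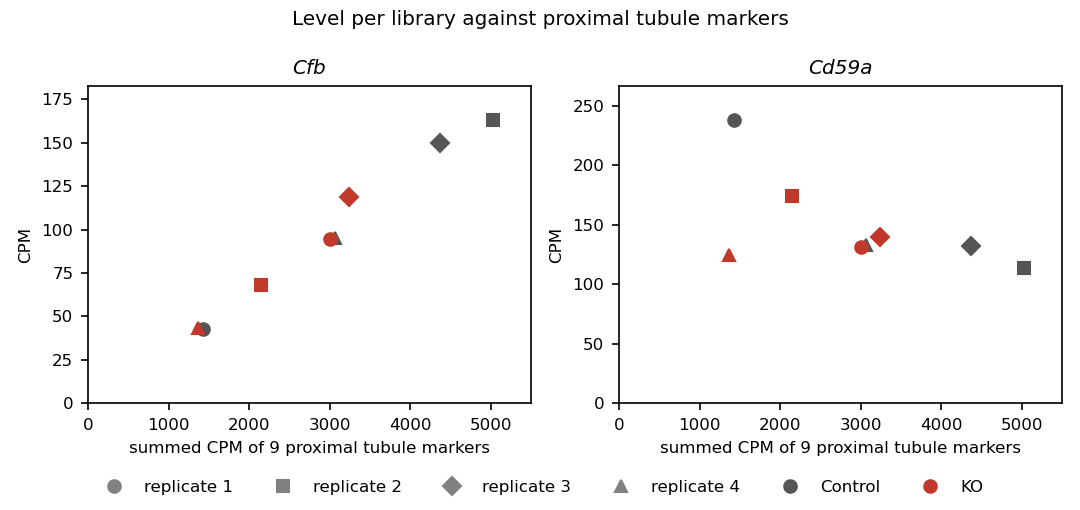
Level in CPM (y axis) of Cfb on the left and Cd59a on the right against the summed CPM of 9 proximal tubule markers (x axis), 1 point per library, grey for Control and red for KO. Cfb rises with the sum from 42.9 and 43.6 CPM to 163 CPM in libraries of both groups, and Cd59a does not, its highest value of 238 CPM being in Control replicate 1.

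Other readings bear on the same stretch of chromosome 17. Gm20547, a read-through gene on the same strand, shares 2246 exon bases with Cfb and was given 44.2, 168, 158 and 96.3 CPM in Control against 98.4, 70.6, 120 and 45.2 CPM in KO. These are nearly the Cfb values in each library, and shared reads cannot be told apart. C2 (34862604 to 34898265), the factor B counterpart of the classical pathway, is the neighbour of Cfb and shares 1656 exon bases with Gm20547. It was at 5.07, 19.2, 19.6 and 9.37 CPM in Control against 11.7, 9.95, 10.9 and 5.56 CPM in KO (log2 fold change -0.48 ± 0.40, SE, n = 4 per group, edgeR adjusted p = 0.600). Against the proximal tubule sum, C2 had r = 0.96 (exact permutation p = 0.00184, adjusted p = 0.0780) and rho = 0.83 (exact permutation p = 0.0154, adjusted p = 0.308), which did not pass after adjustment.

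The 4 regulators included both abundant and scarce transcripts. Cd59a (ENSMUSG00000032679, chromosome 2, 104095801 to 104115354), the surface inhibitor of the membrane attack complex, was at 238, 114, 132 and 133 CPM in Control against 131, 174, 140 and 125 CPM in KO. Control replicate 1 was the highest of all, and the other 7 libraries of both groups lay between 114 and 174 CPM. The log2 fold change of -0.12 ± 0.22 (SE) turned to 0.16 without Control replicate 1 and to 0.04 with library totals as the scaling. With library totals, the median log2 fold change of all genes moved from -0.02 to 0.13. Its near copy Cd59b was at 5.91 ± 1.66 CPM in Control against 5.83 ± 0.904 CPM in KO (SD, n = 4; log2 fold change -0.02 ± 0.23, SE, edgeR adjusted p = 0.979), a value that also changed sign under library totals, to 0.14.

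Cd55 (ENSMUSG00000026399, chromosome 1, 130439027 to 130462744), which dissociates the C3-cutting enzymes, was at 2.83, 3.90, 4.86 and 5.41 CPM in Control against 12.9, 4.51, 5.47 and 6.92 CPM in KO. KO replicate 1 stood far above the rest, and KO replicate 2 lay within the Control range. The log2 fold change of 0.82 ± 0.34 (SE) was 0.40 without KO replicate 1. Cd55b, its near copy, had a single count in all 8 libraries together.

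Serping1 (ENSMUSG00000023224, chromosome 2, 84765387 to 84775444), the C1 inhibitor, was at 1.76, 0.746, 1.1 and 1.1 CPM in Control against 0.555, 0.578, 0.512 and 0 CPM in KO. Every KO library lay below every Control library. KO replicate 4 had 0 counts, which at its depth allows up to 0.150 CPM (3 counts, counting error only). The log2 fold change was -1.44 ± 0.63 (SE), which depends on how a count of 0 is modelled, and -1.08 without KO replicate 4.

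Cfi (ENSMUSG00000058952, chromosome 3, 129835884 to 129875332), the protease that inactivates C3b and C4b, was at 1.07, 3.90, 1.05 and 0.902 CPM in Control against 1.73, 1.54, 1.38 and 0.702 CPM in KO. Control replicate 2 was the highest of the 8 libraries, and the other 7 lay between 0.702 and 1.73 CPM. The log2 fold change of -0.39 ± 0.52 (SE) turned to 0.42 without it.

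**Figure D3:**
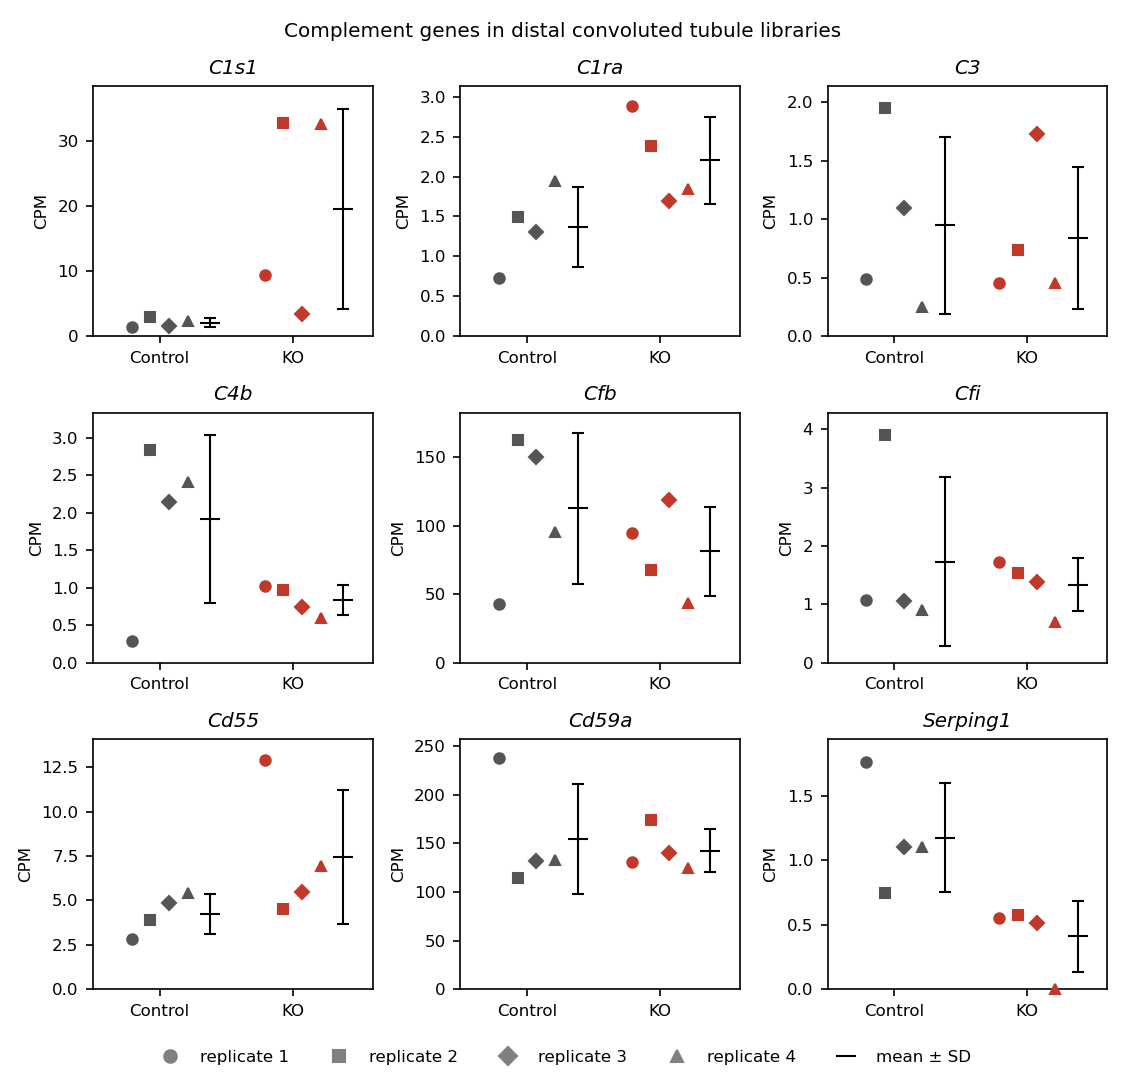
Level in CPM (y axis, a separate scale in each panel) of the 9 complement genes, 1 point per library, grey for Control and red for KO, with the mean ± SD of 4 as a bar. The groups do not overlap for C1s1 (KO above, 3.46 to 32.8 CPM) and Serping1 (KO below, 0 to 0.578 CPM), and they overlap for the other 7.

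Per kb of exon, the levels in Control fell into 2 tiers. Cd59a was at 85.3 ± 31.1 and Cfb at 39.9 ± 19.5 CPM per kb (SD, n = 4), a gap larger than either SD. The other 7 lay between 0.184 and 0.876 CPM per kb. Their order was Cd55 at 0.876 ± 0.234, Cfi at 0.779 ± 0.652, C1s1 at 0.659 ± 0.228, Serping1 at 0.506 ± 0.181, C1ra at 0.460 ± 0.170, C4b at 0.337 ± 0.197 and C3 at 0.184 ± 0.147 CPM per kb, and each neighbour in that order differed from the next by no more than their spread. In KO, C1s1 at 6.25 ± 4.92 CPM per kb was next after Cfb and Cd59a, and its gap to Cd55 at 1.53 ± 0.775 was within its own spread. Serping1 at 0.177 ± 0.119 and C4b at 0.147 ± 0.0346 CPM per kb were then level with C3 at 0.164 ± 0.118.

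Counted over the 9 genes, 1 (C1s1) was higher and 0 were lower in KO by edgeR at an adjusted p under 0.05, against 1.34% and 0.876% of all genes tested. Groups without overlap were seen in 1 of 9 upward and 1 of 9 downward, against 5.61% and 3.83%. Nothing is read from these shares, since the contrast was used in the choice. The median log2 fold change of the 9 was -0.22, with a range of -1.44 to 3.21, beside a median of -0.02 for all genes. C1s1 did not pass in 10 of the 16 other fits that tested it: without any single one of Control replicates 1 to 4 and KO replicates 2 and 4, with limma-voom, with a batch term for an index in the file name, in the 6 libraries without that index, and with the animal-number series as a block. Its log2 fold change was 2.85 to 3.70 over the 16.

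Of 53 other complement genes, 42 had a count in some library and 21 had enough to be tested. By edgeR, 0 passed in either direction, and 3 had an unadjusted p under 0.05, against 13.9% of all genes tested: C1rb and C1s2 upward and Clu downward. DESeq2 called these 3, and over all genes it called 2.6% higher and 1.87% lower. The median log2 fold change of the 21 was -0.12. C1q, the recognition unit that C1r and C1s attach to, was low: C1qb was at 0.525 ± 0.189 CPM in Control against 0.571 ± 0.496 CPM in KO (SD, n = 4), with a log2 fold change of 0.11 ± 0.66 (SE, edgeR adjusted p = 0.947), and C1qc had 0.60 ± 0.64 (SE, edgeR adjusted p = 0.685). Both genes were named after their values were seen. Cfd, the protease that activates factor B, and Hc, which encodes C5, had no counts in any library.

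Clu, which encodes the chaperone and terminal-pathway inhibitor clusterin, was the most abundant of the other genes. It was at 2550, 2590, 2030 and 1680 CPM in Control against 625, 1400, 1710 and 796 CPM in KO. KO replicate 3 lay above Control replicate 4, with a log2 fold change of -0.96 ± 0.31 (SE, n = 4 per group, edgeR adjusted p = 0.180, DESeq2 adjusted p = 0.0296). The other abundant genes did not pass by edgeR: C1qbp, a mitochondrial protein first named for C1q binding, had a log2 fold change of -0.27 ± 0.16 (SE, adjusted p = 0.457), and Cr1l, the rodent surface regulator Crry, had -0.12 ± 0.11 (SE, adjusted p = 0.650). Susd4, a membrane inhibitor, had 0.12 ± 0.22 (SE, edgeR adjusted p = 0.820), and the carboxypeptidase gene Cpn1, whose enzyme inactivates the peptides released from C3 and C5, had -0.77 ± 0.46 (SE, edgeR adjusted p = 0.477). The values of Cr1l and Susd4 changed sign in other fits, to 0.04 with library totals and to -0.04 without KO replicate 4.

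**Figure D4:**
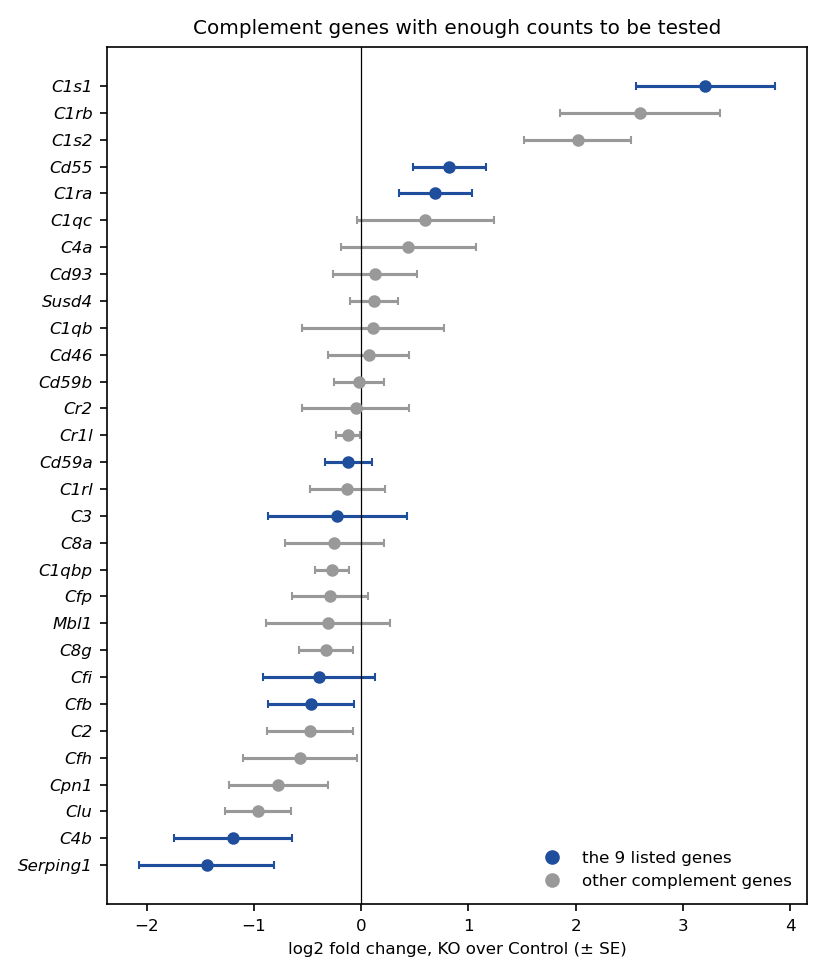
Log2 fold change, KO over Control (x axis, ± SE, n = 4 per group), of the complement genes with enough counts to be tested, ordered by value, with the 9 listed genes in blue and the other 21 in grey. C1s1 at 3.21 is the highest and Serping1 at -1.44 the lowest, and the blue points were chosen with this contrast known.

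Genes that act on complement transcription were examined as a further list of 38 cytokines, receptors and transcription factors, of which 35 had a count and 31 were tested. By edgeR, 0 passed in either direction and 3 had an unadjusted p under 0.05, against 13.9% of all genes tested, and the median log2 fold change was 0.05. Il6, Ifng and Ifnb1 had no counts in any library. Socs3, the feedback inhibitor that STAT3 induces, was at 13.7, 12.4, 11.1 and 8.02 CPM in Control against 7.61, 27.5, 35.8 and 42.9 CPM in KO, a log2 fold change of 1.32 ± 0.43 (SE, n = 4 per group, edgeR adjusted p = 0.186). KO replicate 1 was the lowest of all 8 libraries and the other KO libraries were the highest 3. When single libraries were left out the value was 1.06 to 1.64, with 1.64 without KO replicate 1. That library is the one that goes against the difference, so no p-value is read from the fit without it. The KO order of Socs3 differed from that of C1s1, for which KO replicate 3 was the lowest.

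Of the receptors, Ifnar1, for type I interferon, was at 37.4 ± 4.21 CPM in Control against 47.0 ± 2.21 CPM in KO (SD, n = 4), without overlap between the groups (log2 fold change 0.33 ± 0.11, SE, edgeR adjusted p = 0.206). Lifr, for leukaemia inhibitory factor, had -0.45 ± 0.17 (SE, edgeR adjusted p = 0.278), and Ifngr1, for interferon gamma, had -0.19 ± 0.12 (SE, edgeR adjusted p = 0.482). Of the transcription factors, Nfkb2 had 0.65 ± 0.30 (SE, edgeR adjusted p = 0.366) and the liver X receptor gene Nr1h3 had -0.31 ± 0.19 (SE, edgeR adjusted p = 0.480).

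Genes following a complement gene over the 8 libraries were ranked by Pearson's r on log2(CPM + 1), among 12127 protein-coding genes. The ranking is a description with no test, since with 8 libraries some of so many genes must lie close. Orders of libraries shared with the complement gene follow largely from the ranking itself. The 5 nearest to C1s1 were Psca, a surface protein, Esco2 and Cdc20, genes of sister chromatid cohesion and mitosis, Tbc1d2 and Sh3gl1, with r from 0.981 to 0.987. All 5 had the same KO order at the low end as C1s1, with KO replicate 3 lowest: Psca was at 7.59, 26.6, 1.26 and 49.1 CPM in KO and at most 0.289 CPM in Control. The 5 nearest to C3 were Trip4, Atg4a, Abraxas2, Asah2 and Hao2 (r from 0.942 to 0.969), all with Control replicate 2 highest or next to highest. For Cfi they were Atf3, Icosl, Bdkrb2, Wdpcp and Csrnp1 (r from 0.915 to 0.940). Each of these was highest in Control replicate 2, as Cfi was, with Atf3, a stress-induced transcription factor, at 11.9 CPM there and 0.470 to 2.63 CPM in the other 7 libraries.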

How the data were processed

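Counts were deposited by the authors as whole numbers of reads per Ensembl mouse gene, without normalization, for 4 Control and 4 KO libraries. The tools named in the submitters' processing notes are STAR 2.7.4a, fastp 0.20.0 and bcl2fastq 2.20, and the build is GRCm38.p6. Not given in the sources used here are the counting program, annotation release, strand setting and treatment of reads matching several genes, so values of near copies and overlapping genes are uncertain. Total counts ranged from 18161442 to 45150953. Names and positions come from GENCODE vM21, which named 42347 of 42416 identifiers; the other 69 held 0.0199% of counts and were left in.

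Genes were kept by edgeR's filterByExpr, scaled by TMM and compared with the two-sided quasi-likelihood test of edgeR 4.0.16 (R 4.3.3), with group as the only term and Benjamini-Hochberg adjustment over all genes tested, at a threshold of 0.05. Standard errors were derived from the fold change and F, and the test was tested on simulated data. CPM are on TMM-scaled library sizes, and CPM per kb divides by the length of merged exons. Promoters come from RefSeq, near copies were compared by shared words of 50 bases, and correlations used Python 3.11.15 with SciPy 1.17.1. Labels do not say whether same-group animals shared litters or sorting days. The p-values of the group comparison set the group difference against the spread within the groups of these 8 libraries. They treat the libraries as independent, which is not known.

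The 9 genes, the lists and the tests were chosen with earlier results of these data known. Named were the 9 genes and 5 near copies, and the 6 most abundant other complement genes besides any that passed. Up to 6 inducers by smallest p were also named, and the 5 genes most like C1s1, C3 and Cfi. Named beyond this rule, with values seen, were C1qb, C1qc, Cfd, Hc, Gm20547, the inducers without counts and single cell type markers. Alternatives were DESeq2 1.42.0, limma-voom (limma 3.58.1) with quality weights, upper-quartile scaling, library totals, no filter, at least 5 CPM in 4 libraries, a batch term for an index in the file name, the 6 libraries without such an index, a block for the series of animal numbers, and leaving out each library.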

Additional observations from a re-analysis of the deposited data

Results flagged for a closer look

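In 50 groups of 4 libraries examined with Dixon's test, 6 held 1 library far from the other 3, and chance alone marks a few such groups in so many. Cfi was at 3.90 CPM in Control replicate 2 against 0.902 to 1.07 CPM in the rest of its group. Cd59a was at 238 CPM in Control replicate 1 against 114 to 133 CPM. Serping1 was at 0 CPM in KO replicate 4 against 0.512 to 0.578 CPM. C1s2 was at 2.68 CPM in Control replicate 1 against 1.15 to 1.31 CPM, which is the value that makes its groups overlap. Susd4 was at 20.7 CPM in Control replicate 4 against 11.9 to 13.4 CPM. Ifnar1 was at 50.3 CPM in KO replicate 4 against 45.5 to 46.3 CPM.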

How the results depend on the processing

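The count of all genes called, 316 by edgeR, was 750 with DESeq2, 519 with limma-voom, 140 with at least 5 CPM in 4 libraries, 199 with a batch term for an index in the file name, 56 in the 6 libraries without an index, 29 with a block for the series of animal numbers and 36 to 388 when single libraries were left out. Of the 9 genes, C1s1 alone was called higher; the count was 0 with limma-voom, with at least 5 CPM (which removes C1s1 from testing), with the file-name term, in the 6 libraries and with the animal-series block, and 0 to 1 with libraries left out. The count called lower was 0 to 1 with libraries left out, the 1 being C4b without Control replicate 1. Other complement genes called higher numbered 2 with DESeq2, 1 with no filter (C1s2) and 0 to 1 with libraries left out, and called lower 1 with DESeq2. Inducers called higher numbered 1 with DESeq2, 1 in the 6 libraries (Socs3 each time) and 0 to 1 with libraries left out.

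Signs turned for C3 (0.68 in the 6 libraries, -0.86 to 0.45 with libraries left out), Cfi (0.27, -0.60 to 0.42), C4a (-0.31, -0.12 to 0.86), Cd59a (0.04 with library totals, 0.14 with limma-voom, -0.24 to 0.16), Cd59b (0.14, 0.14, -0.12 to 0.19), Cr1l (0.04 with library totals) and Susd4 (-0.04 to 0.32). Their causes were not tested. Library totals gave 242 genes higher and 90 lower. C1s1 stayed between 2.85 and 3.70 in the 16 alternatives that tested it. At 5 to 81 counts of C3 per library, small differences were not detectable. The labels give no shared replicate number, and the fit closest to a pairing was the block for the series of animal numbers, in which C1s1 had 3.14. A series holds the animals whose numbers share their leading digits. Control replicate 4 was alone in its series, so it adds nothing to the group difference in that fit.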
